A study of Rattus norvegicus with 12 samples.

Results

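The genes described here are the MAP kinase phosphatases Dusp1, Dusp4, Dusp5, Dusp6 and Dusp14 and the Sprouty family genes Spry1, Spry2, Spry4, Spred1 and Spred2, 10 genes that restrain growth factor and MAP kinase signaling. They were found on the array by the gene name given to each probe. This gave 12 probes for 9 of the 10 genes, with 2 probes for Spry1 and 3 for Spred1. The array held 41012 probes under 35699 gene or transcript names in all. Shares of all genes below are taken over these names, whether or not they were well above background. Dusp14 had no probe under its own name, and 1 probe named only by a transcript accession was assigned to it through RefSeq. Its values are given beside the others, and counts of genes cover the other 9. Cultures of dissociated hippocampal neurons from Sprague-Dawley rat embryos (E18.5) were kept 10 to 13 days in vitro and then treated for 48 h. The control (CTL) cultures received vehicle (0.1%, labelled DMSO for these arrays and H2O in the methods of the study). The other cultures received tetrodotoxin (TTX, 0.5 to 1 µM), a sodium channel blocker that silences action potentials, or bicuculline (BC, 20 µM), a GABA-A receptor antagonist that removes inhibition. RNA of 4 samples per treatment was hybridized to 12 one-color arrays. The labels do not say whether these samples came from separate cultures, so each p-value rests on the spread among these samples alone, some or all of which may be technical.

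MAP kinase pathways carry signals from growth factor receptors and calcium entry to the nucleus through a chain of kinases that ends in ERK, JNK or p38. Dual specificity phosphatases of the MAP kinase phosphatase group end such a signal by removing both activating phosphates from the kinase. Sprouty and SPRED proteins act higher up, at the step from receptor tyrosine kinases to Ras and RAF. Several of these genes are themselves transcribed in response to ERK or calcium signaling, so they are textbook examples of negative feedback, and in neurons Dusp1 is also known as an activity-induced immediate early gene.

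RefSeq promoters of 9 of the 10 genes were searched for motifs of transcription factors that respond to neuronal activity. The search covered the 250 bases before the transcription start, on both strands. These 9 genes include Dusp14, while Dusp4 had no promoter entry and was not searched. The promoters of 2 genes are shown, Dusp1 for the cyclic AMP response element (CRE, TGACGTCA) and Dusp5 for the CArG box bound by serum response factor, each the only gene of the 9 that held that motif. Capitals mark CRE half-sites (TGACG, either strand) and CArG boxes. Both are on the plus strand of GRCr8, at chr10:17184603-17184852 for Dusp1 and chr1:262543524-262543773 for Dusp5.
Dusp1: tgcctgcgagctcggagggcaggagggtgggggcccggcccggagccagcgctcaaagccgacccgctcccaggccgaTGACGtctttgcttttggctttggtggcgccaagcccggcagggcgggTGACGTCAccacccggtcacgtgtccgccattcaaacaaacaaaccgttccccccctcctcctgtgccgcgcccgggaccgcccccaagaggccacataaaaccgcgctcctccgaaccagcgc
Dusp5: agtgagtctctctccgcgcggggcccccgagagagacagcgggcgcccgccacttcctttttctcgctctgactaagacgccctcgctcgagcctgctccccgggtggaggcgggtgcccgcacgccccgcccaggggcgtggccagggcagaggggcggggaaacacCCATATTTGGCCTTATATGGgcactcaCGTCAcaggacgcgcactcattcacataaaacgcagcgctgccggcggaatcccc

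The Dusp1 promoter held 1 CRE, which begins 124 bases before the start and contains 2 of the 3 half-site matches. The other half-site begins 172 bases before the start. The Dusp5 promoter held 2 adjoining CArG boxes, at 82 and 72 bases before the start, and 1 half-site at 55 bases. Of 33469 rat promoters, 1.59% held a CRE, 1.5% a CArG box and 18.2% a half-site. The 9 genes had 12 promoter entries, 3 of them for Dusp14 and 2 for Spry2. A half-site was found in 5 of the 12 promoters, 1 each for Dusp1, Dusp5, Dusp14, Spred2 and Spry2. The AP-1 site (TGANTCA), held by 6.34% of promoters, was found in 1 of the 12, a Dusp14 promoter. Dusp6, Spry1, Spry4 and Spred1 held none of these letters in this window.

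Of the 60-base probes, 2 are printed to show what was measured for a gene that moved in both directions and for a Sprouty gene that moved with BC. The Dusp1 probe lies on the plus strand of rn4 chromosome 10 and spans positions 16944342 to 16944661, which is more than its own length. The Spry2 probe lies on the minus strand of rn4 chromosome 15, from 90009823 to 90009882.
Dusp1 probe: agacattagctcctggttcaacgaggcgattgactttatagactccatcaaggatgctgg
Spry2 probe: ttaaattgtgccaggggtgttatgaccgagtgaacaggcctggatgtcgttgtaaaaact

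All 13 probes were well above background on all 12 arrays, and none of their spots was flagged as an outlier or saturated. Signals below are background-subtracted and quantile-normalized intensities on a linear scale, in the order of replicates 1 to 4, and they are compared between treatments of 1 probe, not between probes. Differences are log2 fold changes from limma over all probes, and a gene was called when its Benjamini-Hochberg adjusted p was under 0.05 and it changed at least 1.5-fold. Between 74.1% and 78.1% of probes were well above background per array, and the median signal before normalization was 105 to 148. The number of arrays limits the precision.

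BC raised most of the feedback genes. Relative to CTL, 6 of the 9 genes rose (Dusp1, Dusp4, Dusp6, Spry1, Spry2 and Spry4) and none fell, where 2.13% of all genes were called higher and 1.47% lower. TTX lowered 2 of the 9, Dusp1 and Spry4, and raised none, where 2.7% of all genes were called lower and 1.48% higher. Without regard to the call, the 4 BC arrays lay above all 4 CTL arrays for 8 of the 9 genes, all but Spred2, as for 7.58% of all genes. The 4 TTX arrays lay below all CTL arrays for 4 of the 9, as for 8.06% of all genes. The median log2 fold change of the 9 genes was 0.69 with BC and −0.22 with TTX, beside −0.01 and 0.01 over all genes. Dusp1 and Spry4 were thus called lower with TTX and higher with BC, a pattern that 0.633% of all genes showed. Both comparisons share the 4 CTL arrays.

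**Figure D1:**
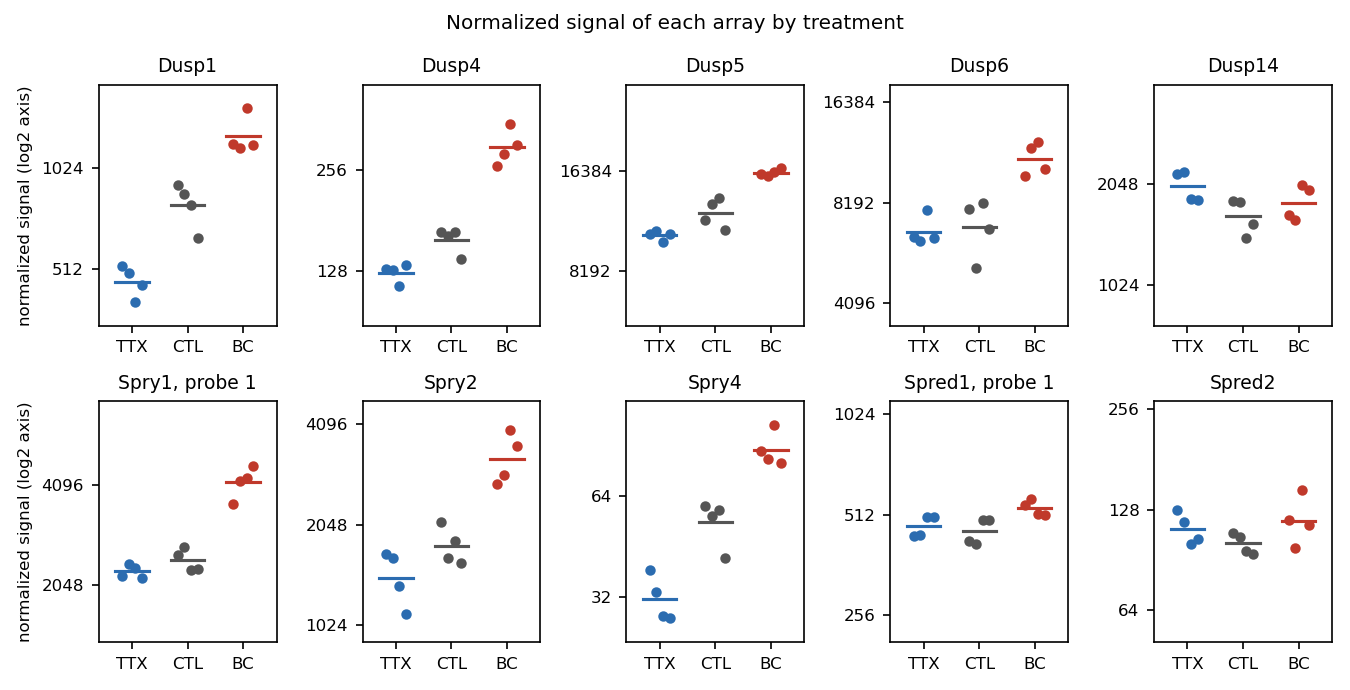
Normalized signal (vertical log2 axis, each panel spanning the same ratio) of the probe representing each of the 10 genes on every array, with 4 points per treatment and a bar at the mean of the log2 values. The BC arrays of Dusp1, Dusp4, Dusp5, Dusp6, Spry1, Spry2, Spry4 and, narrowly, Spred1 lie above all CTL arrays. The TTX arrays of Dusp1, Dusp4, Dusp5 and Spry4 lie below all CTL arrays.

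Dusp1 encodes a nuclear phosphatase of p38, JNK and ERK. Its signal was 913, 859, 793 and 634 on the CTL arrays, 520, 497, 406 and 459 on the TTX arrays, and 1210, 1181, 1551 and 1205 on the BC arrays. The treatments did not overlap, with every TTX array below and every BC array above all CTL arrays. With TTX it fell by 0.76 on the log2 scale (limma adjusted p = 0.00479, SE 0.133, 4 arrays in each group). With BC it rose by 0.69 (SE 0.133, limma adjusted p = 0.00904). Without CTL replicate 4, the lowest of its group, the BC difference was 0.58 and just missed the fold threshold, although its adjusted p was 0.0192.

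Dusp4 encodes a related nuclear phosphatase. Its signal was 168, 163, 167 and 139 on the CTL arrays, 130, 129, 115 and 133 on the TTX arrays, and 264, 287, 353 and 306 on the BC arrays. Here too the treatments did not overlap, and CTL and TTX were set apart by a small gap. Dusp4 rose with BC by 0.92 (SE 0.098, limma adjusted p = 0.000281), a 1.90-fold change and the largest with BC among the 9 genes. With TTX the difference was −0.33 (SE 0.098, limma adjusted p = 0.0626), which was not called.

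Dusp5 encodes a nuclear phosphatase specific for ERK. Its signal was 11677, 12991, 13607 and 10895 on the CTL arrays, 10609, 10793, 10008 and 10609 on the TTX arrays, and 16051, 15772, 16185 and 16659 on the BC arrays. All TTX arrays lay below and all BC arrays above the CTL arrays, the TTX and CTL ranges nearly touching. The BC difference of 0.40 (SE 0.0719, limma adjusted p = 0.00633) passed the FDR threshold at 1.32-fold, under the fold threshold. The TTX difference was −0.22 (SE 0.0719, limma adjusted p = 0.0839).

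Dusp6 encodes the cytoplasmic ERK phosphatase that is commonly used as a readout of ERK activity. Its signal was 7812, 5200, 8181 and 6837 on the CTL arrays, 6447, 6289, 7793 and 6400 on the TTX arrays, and 9840, 11925, 12449 and 10322 on the BC arrays. CTL and TTX arrays were interleaved, while all BC arrays were higher than both. Dusp6 rose with BC by 0.68 (SE 0.144, limma adjusted p = 0.0146). Without CTL replicate 2, the lowest array, the BC difference was 0.55 and was not called (adjusted p = 0.0217). With TTX the difference was −0.04, with a 95% interval of −0.36 to 0.28 (limma adjusted p = 0.951), so a change past 1.5-fold lay outside the interval.

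Dusp14 encodes a small atypical phosphatase without the domain by which the other 4 bind their kinase. Its signal was 1829, 1817, 1410 and 1552 on the CTL arrays, 2199, 2228, 1855 and 1835 on the TTX arrays, and 1651, 1595, 2039 and 1970 on the BC arrays. TTX arrays were all above CTL arrays by a narrow margin, and BC arrays overlapped both. The TTX difference was 0.30 (SE 0.119, limma adjusted p = 0.164) and the BC difference 0.14 (limma adjusted p = 0.644), and neither was called.

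**Figure D2:**
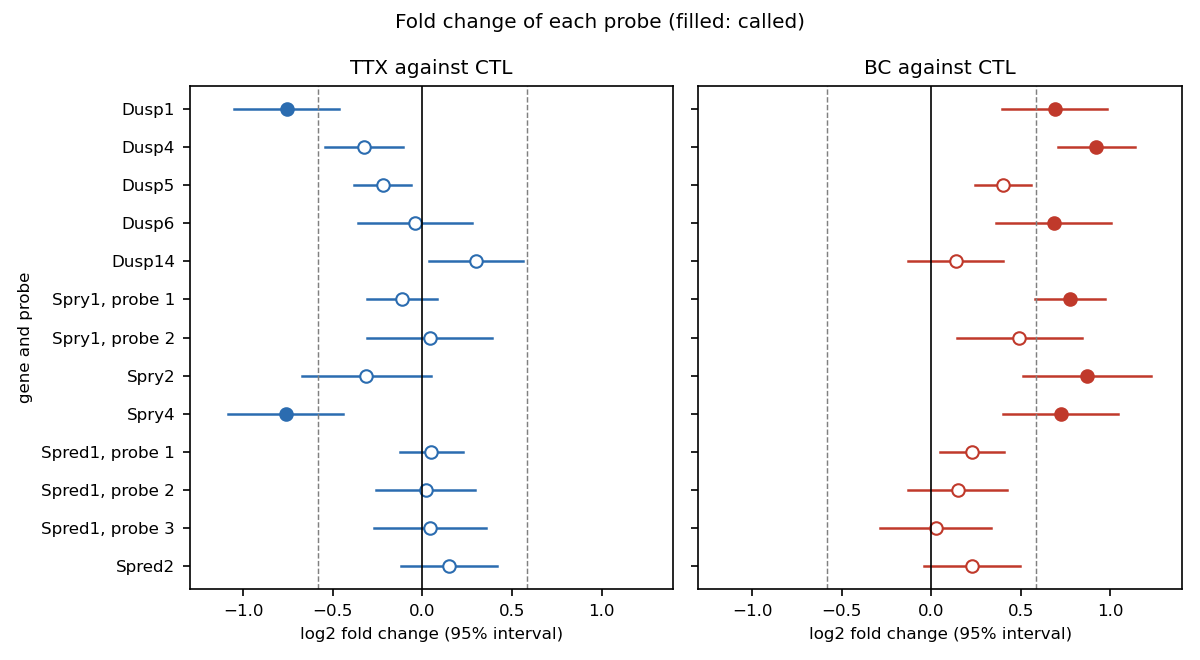
Log2 fold change of each of the 13 probes (horizontal axis) with its 95% interval, for TTX against CTL (left) and BC against CTL (right). Filled points were called, dashed lines mark a 1.5-fold change in either direction, and the called points lie at −0.76 for Dusp1 and Spry4 with TTX and between 0.68 and 0.92 for 6 genes with BC.

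The Sprouty genes encode inhibitors of Ras and RAF activation that are induced by growth factors. The Spry4 probe gave 60.0, 55.9, 58.2 and 41.7 on the CTL arrays, 38.4, 33.0, 28.1 and 27.6 on the TTX arrays, and 87.3, 82.8, 104 and 80.3 on the BC arrays. No treatment overlapped another. Spry4 fell with TTX by 0.76 (SE 0.145, limma adjusted p = 0.00757) and rose with BC by 0.72 (SE 0.145, limma adjusted p = 0.0112). The size depended on the background subtraction. With no background subtracted the differences were −0.34 with TTX and 0.41 with BC. Their adjusted p-values there were 0.0261 and 0.00987, and neither reached the fold threshold.

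Spry2 gave 2081, 1622, 1832 and 1573 on the CTL arrays, 1675, 1633, 1345 and 1109 on the TTX arrays, and 2711, 2881, 3942 and 3516 on the BC arrays. The BC arrays stood clear of the rest, and the TTX arrays overlapped the CTL arrays. Spry2 rose with BC by 0.87 (SE 0.162, limma adjusted p = 0.00768), and the TTX difference of −0.31 (SE 0.162, limma adjusted p = 0.308) was not called.

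Spry1 was measured by 2 probes 1 after the other on rn4 chromosome 2, starting at 124217774 (probe 1, the brighter) and 124216505 (probe 2). Probe 1 gave 2526, 2671, 2271 and 2290 on the CTL arrays, 2180, 2371, 2302 and 2153 on the TTX arrays, and 3576, 4208, 4300 and 4667 on the BC arrays. All BC arrays were above all others, and TTX and CTL arrays overlapped. The difference was 0.78 with BC (SE 0.0883, limma adjusted p = 0.000396) and −0.11 with TTX (limma adjusted p = 0.54). On probe 2 the BC arrays (377 to 505) overlapped the CTL arrays (241 to 382), and the BC difference was 0.49 (SE 0.158, limma adjusted p = 0.0927), in the same direction but not called. The TTX difference on probe 2 was 0.04 (limma adjusted p = 0.959).

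Spred1 and Spred2, membrane-bound relatives of Sprouty that recruit the Ras inhibitor neurofibromin, were called in no comparison. The brightest Spred1 probe gave 428, 417, 495 and 494 on the CTL arrays, 443, 447, 503 and 506 on the TTX arrays, and 547, 571, 515 and 513 on the BC arrays. BC arrays were all above CTL arrays, by a narrow margin, and TTX arrays fell among the CTL arrays. Its differences were 0.23 with BC (95% interval 0.05 to 0.41, limma adjusted p = 0.128) and 0.05 with TTX (−0.13 to 0.23, limma adjusted p = 0.827). The 2 other Spred1 probes differed by 0.15 and 0.02 with BC and by 0.02 and 0.04 with TTX, all within overlapping ranges.

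Spred2 gave 109, 106, 96.2 and 94.5 on the CTL arrays, 128, 118, 101 and 105 on the TTX arrays, and 119, 98.0, 147 and 115 on the BC arrays. The treatments overlapped. The differences were 0.23 with BC (95% interval −0.04 to 0.49, limma adjusted p = 0.365) and 0.15 with TTX (−0.12 to 0.42, limma adjusted p = 0.564).

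Set directly against BC, 7 of the 9 genes were called lower with TTX, all but Spred1 and Spred2, where 6.19% of all genes were called lower and 4.68% higher. Spry4 was 2.80-fold lower (log2 fold change −1.49, limma adjusted p = 3.35e-05) and Dusp1 2.73-fold lower (−1.45, limma adjusted p = 2.17e-05). Dusp4 followed with −1.25 (limma adjusted p = 6.89e-06) and Spry2 with −1.18 (limma adjusted p = 0.000355). The remaining differences were −0.89 for Spry1 (limma adjusted p = 3.71e-05), −0.72 for Dusp6 (limma adjusted p = 0.00379) and −0.62 for Dusp5 (limma adjusted p = 0.000108). The TTX arrays lay below all BC arrays for 8 of the 9 genes, including Spred1, as for 13.3% of all genes. This comparison rests on the same arrays as both others and adds no new samples. In 4 genes (Spry4, Dusp1, Dusp4 and Dusp5) the arrays ranked TTX, CTL, BC with no overlap between any 2 treatments, which 2.47% of all genes did.

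Each of the 4 slides held 1 CTL, 1 TTX and 1 BC array, so each difference could also be taken within a slide. Dusp1 was lower with TTX on all 4 slides (−0.88 to −0.64) and higher with BC on all 4 (0.49 to 0.93). Spry4 likewise was lower with TTX (−1.08 to −0.54) and higher with BC (0.51 to 1.06) on every slide. With BC, Dusp4 (0.78 to 1.07), Dusp6 (0.53 to 0.99), Spry1 probe 1 (0.64 to 0.89) and Spry2 (0.65 to 1.12) were higher on all 4 slides. Dusp6 with TTX was lower on 2 slides and higher on the other 2 (−0.35 to 0.31).

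With slide as a block the same numbers of genes were called as without it, and some smaller differences from CTL newly passed the FDR threshold alone. These were Dusp4 and Dusp5 with TTX (−0.33, limma adjusted p = 0.00958, and −0.22, adjusted p = 0.045), Dusp14 with TTX (0.30, adjusted p = 0.00235) and Spred1 probe 1 with BC (0.23, adjusted p = 0.00901). Spry1 probe 2 with BC also did (0.49, limma adjusted p = 0.00227), and all 5 stayed under the fold threshold. Arrays of slides 1 and 3 deviated from their group means together, as did those of slides 2 and 4 (r = 0.20 to 0.41 within and −0.39 to −0.20 between these pairs, across probes). With the pair of slides as a block over all 12 arrays, the 6 BC calls stood (limma adjusted p = 0.000109 to 0.0104). So did the TTX calls of Dusp1 (limma adjusted p = 0.00059) and Spry4 (limma adjusted p = 0.00196). In another fit the 2 arrays of a treatment on such a pair were averaged to 1 value, and the pair was kept as a block. No BC call then remained (limma adjusted p = 0.0704 to 0.0922 for the 6 genes), as for all other genes on the array. The TTX call of Dusp1 remained and that of Spry4 did not (limma adjusted p = 0.0597). With the 2 arrays of a treatment on such a pair as a random block, 2 BC calls ended. These were Dusp6 (limma adjusted p = 0.111) and Spry4 (limma adjusted p = 0.0669).

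**Figure D3:**
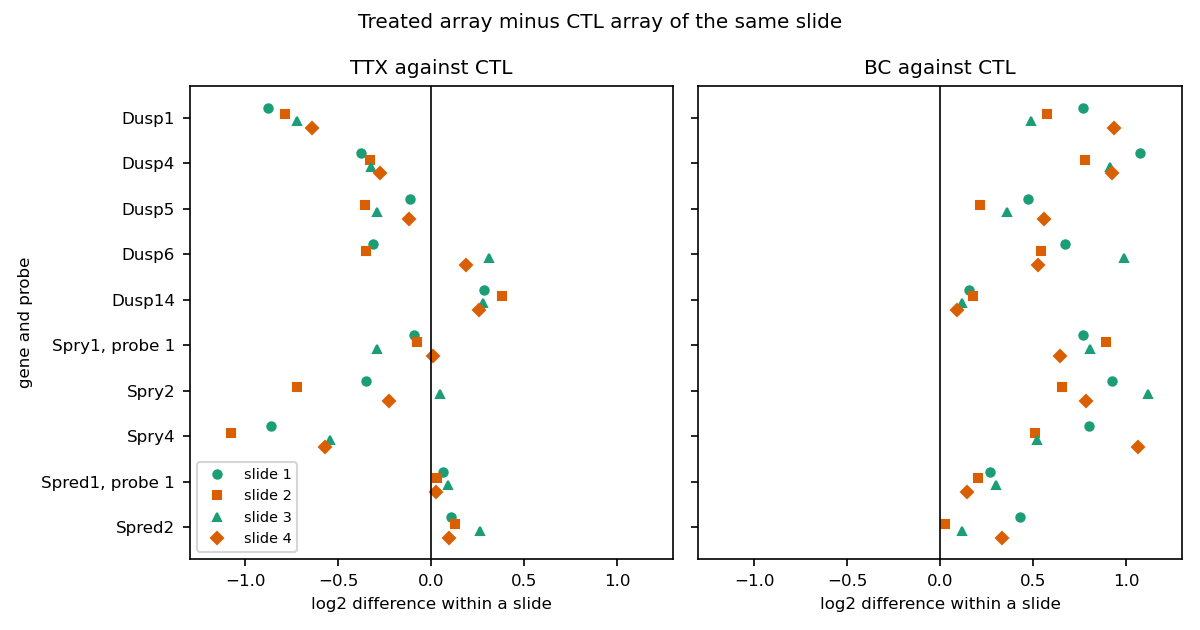
Log2 difference between the treated array and the CTL array of the same slide (horizontal axis) for the probe representing each gene, for TTX (left) and BC (right), with 1 point per slide, slides 1 and 3 in green and slides 2 and 4 in orange. All 4 points of Dusp1 and Spry4 lie left of 0 with TTX and right of 0 with BC.

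Of 17 other dual specificity phosphatase genes, 1 was called lower with TTX and none with BC. That gene was Dusp9, which encodes an ERK phosphatase (−0.85, SE 0.241, limma adjusted p = 0.0499). Of 15 other inhibitors of receptor and Ras signaling, 1 was called higher with BC and none with TTX. This was Spred3, which belongs to the same family as Spred1 and Spred2, with 0.74 (SE 0.111, limma adjusted p = 0.00217). The medians of both lists lay between −0.17 and 0.04 in the comparisons with CTL. In TTX against BC, 3 of the 17 phosphatase genes were called lower, among them Dusp9 (−1.38), and 1 higher. Of the 15 other inhibitors, 3 were called lower, among them Spred3 (−1.25), and 2 higher. The shares of all genes there were 6.19% lower and 4.68% higher.

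Among 20 growth factor ligands upstream of ERK, 5 were called lower with TTX, while BC gave 1 called higher and 1 called lower. Bdnf, the activity-regulated neurotrophin, fell by 1.45 with TTX (SE 0.133, limma adjusted p = 0.000102) and rose by 1.09 with BC (limma adjusted p = 6e-04). The EGF receptor ligand Areg (−1.28, limma adjusted p = 0.00133) fell with TTX. Fgf18, a fibroblast growth factor, was lower with BC (−0.76, limma adjusted p = 0.00921). Of 16 receptor tyrosine kinases, 3 were called lower with TTX and 1 lower with BC, and none was called higher. Among them, Pdgfra, a receptor of platelet-derived growth factor (−0.79, limma adjusted p = 0.0127), and the neuregulin receptor Erbb4 (−0.73, limma adjusted p = 0.00148) fell with TTX.

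None of the 22 genes of the ERK cascade core was called with either treatment, and the medians were 0.02 with TTX and −0.02 with BC. At an unadjusted p under 0.05 over all probes, 8983 probes differed with TTX and 7935 with BC. Of 19 genes of the JNK, p38 and ERK5 cascades, 2 were called higher with TTX and none with BC. They were the p38 activator Map2k6 (0.63, limma adjusted p = 0.000731) and the p38 target kinase Mapkapk3 (0.60, limma adjusted p = 0.0499).

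Of 22 ERK-responsive transcription factor and immediate early genes, 2 were called lower with TTX and 3 lower with BC, none higher. Arc, a synaptic immediate early gene, fell with TTX by 1.24 (SE 0.13, limma adjusted p = 0.000224) and differed by −0.26 with BC (limma adjusted p = 0.308). The immediate early gene Ier3 was lower with TTX (−0.86, limma adjusted p = 0.00672). The transcription factor genes Egr2 (−1.62, limma adjusted p = 7.08e-05) and Klf4 (−1.01, limma adjusted p = 2.32e-05) were lower with BC. With BC, 3 genes of this list were called in the opposite direction to the 6 phosphatase and Sprouty genes. The list was mixed when TTX was set directly against BC, with 5 of the 22 called lower and 4 higher. Of all genes, 6.19% were called lower and 4.68% higher in that comparison.

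**Figure D4:**
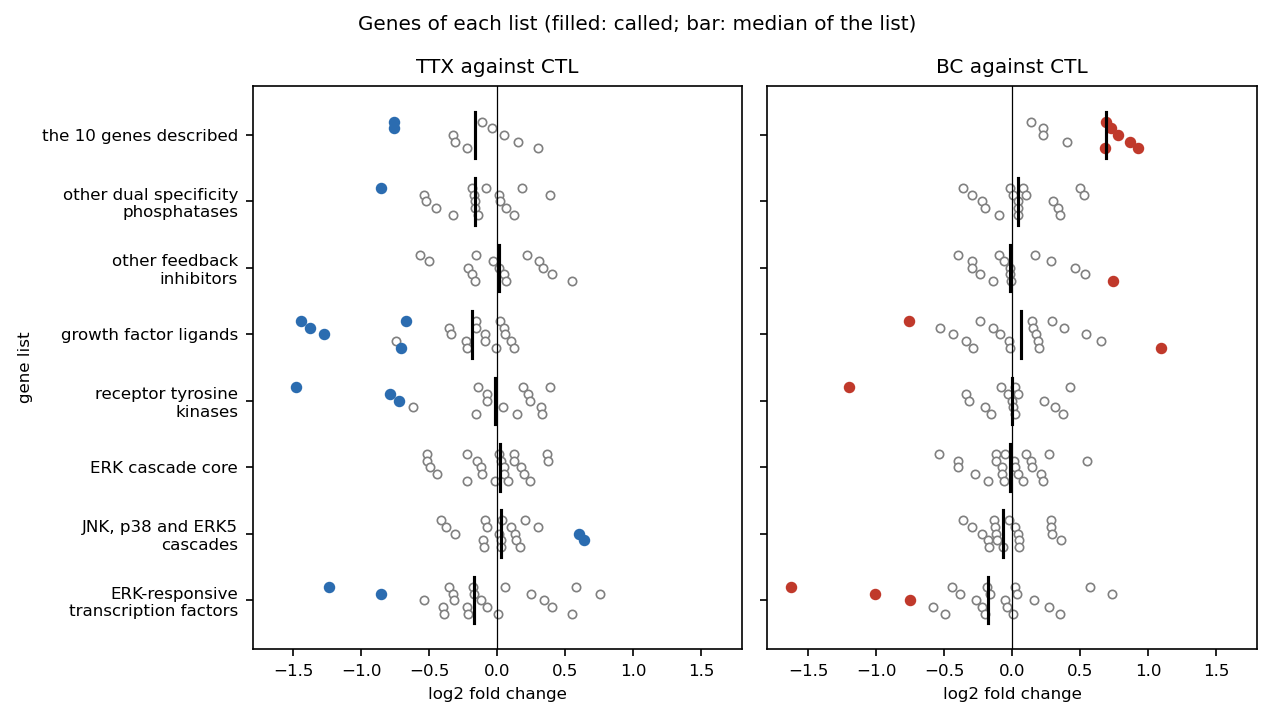
Log2 fold change (horizontal axis) of every gene in 8 lists, for TTX against CTL (left) and BC against CTL (right), with called genes filled and the median of each list as a bar. With BC the median of the 10 genes described lies at 0.69, and the medians of the other lists lie between −0.18 and 0.06.

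The genes whose signal followed Dusp6 and Spry2 most closely over the 12 arrays were sought among 24570 probes, as a description. For Dusp6 they were Alkbh3 (Pearson r = 0.955), a transcript listed as BM390457 (r = 0.951) and Arfrp1 (r = 0.941). For Spry2 they were Clhc1 (r = 0.986), a transcript listed as BI290744 (r = 0.986) and Nudt6 (r = 0.985). The points share the treatment groups and slides.

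Markers of the cell types that the cultures could hold were read on the same arrays. All 7 pan-neuronal markers were well above background on every array, and none was called with TTX or BC. Of 12 GABAergic interneuron markers, 9 were called lower and 1 higher with TTX. BC gave 3 called higher, Npy (0.80), Vip (1.09) and Cort (1.19), and 1 called lower, Calb2 (−0.80). The median log2 fold change of the list was −1.25 with TTX and 0.07 with BC. Their summed signal was 308200 to 360000 on the CTL arrays, 130600 to 138900 on the TTX arrays and 410800 to 468500 on the BC arrays. Without Npy, a choice made after seeing the data, the sums were 205300 to 238700 with CTL, 89600 to 93660 with TTX and 209100 to 260900 with BC, so that the BC and CTL arrays overlapped. These sums add the signals of different probes and are weighted by the brightest. The summed signal of 6 glutamatergic markers ran the other way, from 34970 to 43940 with CTL, 52490 to 59130 with TTX and 25080 to 30520 with BC. The part of cell composition in the results on the 10 genes, with TTX or with BC, was not tested. In these bulk samples, fewer cells of a type and less RNA per cell cannot be told apart. None of 8 astrocyte markers was called. None of 7 microglial markers was called either. Of these, Csf1r, Cd68 and C1qb were well above background on all 12 arrays, C1qa on 2, Cx3cr1 on 1 and the defining markers Aif1 and Itgam on none. Their summed signal was 508.5 to 603.1 on the CTL arrays, 430.9 to 516.5 on the TTX arrays and 436.9 to 535.1 on the BC arrays.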

How the data were processed

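RNA of 4 CTL, 4 TTX and 4 BC samples was hybridized to one-color Agilent rat 4x44K arrays. The authors deposited scanner intensities, which Feature Extraction 9.5.1.1 had background-subtracted and which were not normalized between arrays. They also deposited quantile-normalized log2 values with no background subtracted (1131 empty in BC replicate 2), used as an alternative. Array groups came from the sample labels.

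Processed intensities were taken to log2 without outlier and control spots and quantile-normalized over 12 arrays. limma 3.58.1 (R 4.3.3) was fitted with 1 mean per group and eBayes, with Benjamini-Hochberg adjustment over all probes. Probes were called at FDR under 0.05 and a change of 1.5-fold or more in either direction, as in the methods of the study. The brightest of its probes stood for a gene. Probe names were updated through RefSeq by accession (10927), symbol (5106) or synonym (3525), and 21454 probes kept the file name. All probes of the 10 genes, up to 4 called genes per pathway list with the largest change against CTL, and the 3 genes most correlated with Dusp6 and with Spry2 were named, except for some genes that are not reported here. The members and lists were chosen with earlier results of these data known. In all, 26 alternatives were run, 12 of which left out 1 array. The fit was tested on simulated data. Promoters are from RefSeq (GRCr8), and probe coordinates, per the file headers, from rn4.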

Additional observations from a re-analysis of the deposited data

Results flagged for a closer look

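In 3 of 39 sets of 4 arrays (13 probes, 3 treatments), the highest or lowest array stood apart from the other arrays by more than Dixon's 95% critical value for 4 values. Chance flags about 1 set in 20. Dusp1 on BC replicate 3 was the highest of its group at 1551, and without that array the BC difference was 0.60 (limma adjusted p = 0.0253) and was still called. Dusp4 on CTL replicate 4 was the lowest of its group at 139, and without it the differences were 0.86 with BC (limma adjusted p = 0.00102) and −0.39 with TTX (limma adjusted p = 0.036, under the fold threshold). Dusp6 on TTX replicate 3 was the highest of its group at 7793, and without it the TTX difference was −0.11 (limma adjusted p = 0.785).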

How the results depend on the processing

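The count of 7 genes lower with TTX than with BC stayed at 7 when any 1 array was left out. The count of 6 genes higher with BC was 5 to 6 and that of 2 genes lower with TTX stayed at 2. With no background subtraction, normexp correction or the deposited log2 values, 1 gene in place of 2 was called lower with TTX, since Spry4 fell under the fold threshold. With arrays averaged per slide pair, 1 gene was called lower with TTX and 0 higher with BC, and no probe of the array was called with BC by limma (9133 at an unadjusted p under 0.05). Uncalled differences near 0 changed sign. Spred1 probe 2 with TTX was −0.0054 after normexp correction and ran from −0.0509 to 0.11 when arrays were left out. The other such ranges were −0.18 to 0.0395 for Dusp6 with TTX, −0.0703 to 0.15 for Spry1 probe 2 with TTX and −0.17 to 0.0244 for Spred2 in TTX against BC. Spred1 probe 3 ran from −0.0591 to 0.13 with TTX, −0.0585 to 0.10 with BC and −0.083 to 0.10 in TTX against BC.

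Whether replicate numbers pair the samples could not be told. Same-numbered CTL and TTX arrays lay on the same pair of slides and deviated together (r = 0.28 to 0.38). Same-numbered BC arrays lay on the other pair of slides and did not (r = −0.38 to −0.24 against TTX and CTL). These correlations therefore cannot separate replicate number from slide pair. Of the 12 arrays, 2 correlated best with their own number. With a replicate block the calls stood at 2, 6 and 7 genes, and Dusp1 differed by −0.76 with TTX (adjusted p = 0.0194).

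Over all probes 1718 were called with TTX, 1493 with BC and 4581 in TTX against BC. These fell to 892, 770 and 2610 with normexp, 950, 830 and 2757 with no background subtraction, 941, 830 and 2730 with the deposited values, and 512 (TTX) and 0 (BC) with averaged arrays. Without the fold threshold they rose to 4054, 3361 and 9867.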
